A study of Mus musculus with 10 samples.

Results

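The sinusoidal and vascular endothelial genes described here are Stab1, Stab2, Lyve1, Kdr, Flt4, Tek, Tie1, Pecam1, Cdh5 and Eng. They were taken as every probe set whose platform annotation names exactly 1 of these 10 symbols, which gave 14 of the 45037 probe sets on the array. All 14 were bright enough to be tested, among 27022 tested probe sets that represent 12821 genes. RNA was measured on 1 Affymetrix mouse array for each of 10 single fetal livers at embryonic day 14.5. The 5 knockout livers lacked Zfp36l2, which encodes a zinc finger protein related to tristetraprolin that promotes decay of mRNAs with AU-rich elements, and both they and the 5 wild type livers had a mixed b6, 129 strain background. The labels name no cell type or promoter to which the knockout is limited, and each replicate is the liver of a separate fetus. Hepatocyte genes were bright in both genotypes, with Alb at 15060 and Afp at 16290 in knockout livers against 15410 and 16360 in wild type livers.

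Endothelial cells line all vessels, and in the liver they form fenestrated sinusoids that clear waste molecules from the blood through scavenger receptors. VEGF receptors drive their growth, the Tie receptors regulate vessel remodelling and stability, and VE-cadherin and PECAM-1 hold the cells together. In the fetal liver the sinusoids also surround the developing blood cells. Several of these genes are active outside endothelium as well: Stab1 and Lyve1 in tissue macrophages, Pecam1 in platelets and leukocytes, and Tek and Eng in blood stem and progenitor cells.

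Factors of the ETS family, which bind sites with a GGAA core, are known regulators of endothelial genes. RefSeq promoter sequences (GRCm38.p6) were matched for 7 of the 10 genes, and the 250 bases before the start site were searched for AGGAAG or its complement CTTCCT on the other strand. A match was found in 4 of these 7 genes, against 29.5% of all 32851 promoters searched, and it is a description of the letters, not of binding. The 30-base windows of these 4 genes are shown, with the matched letters in capitals, because they include Stab2 and Eng, which had the smallest p-values of the 10 genes.
Stab1, chr14:31168740-31168769, minus strand: gcgtcctgggccAGGAAGccctgaacaggg
Stab2, chr10:87007965-87007994, minus strand: cacctactttccCTTCCTaaccagggaaag
Tie1, chr4:118490051-118490080, minus strand: ggaagccactggCTTCCTccctttcctgtc
Eng, chr2:32646531-32646560, plus strand: aagcctgtggcaCTTCCTctactcgcctgg
The Eng promoter held a second match 6 bases before the start, and no match was found in the windows of Kdr, Flt4 and Tek.

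The values are quantile-normalized intensities, on which 43.1% of the probe sets of each array lie under 16 units. Values under 16 were set to 16 before log2 was taken, and a log2 change is knockout minus wild type. Zfp36l2, the deleted gene, averaged 102 ± 11.3 in knockout livers and 434 ± 91.0 in wild type livers (SD, n = 5 each), with no overlap (limma adjusted p = 1.467e-06). A dimmer Zfp36l2 probe set averaged 25.05 in knockout and 31.4 in wild type livers and was not called. A probe set is called where limma gives an adjusted p under 0.05 over all tested probe sets. This called 57 probe sets, 29 higher and 28 lower in knockout livers, or 0.211% of those tested. That count ran from 13 without wild type replicate 4 to 168 without wild type replicate 5, and leaving out any other liver gave 15 to 34. With arrays scaled to a common median it was 94, of which 73.4% were higher, against 50.9% in the setting used here.

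None of the 14 endothelial probe sets was called (0 of 14 in limma). On simulated data the fit recovered 45.5% of 1.5-fold changes in probe sets with a mean log2 above 6. Differences of that size or smaller could therefore be missed in such probe sets. The simulation did not cover dimmer ones, here those of Tek, Tie1 and Pecam1 and the dimmer ones of Flt4, Cdh5 and Eng. Larger differences could be missed there. An unadjusted p under 0.05 was found for 3 of the 14, against 9.75% of all probe sets, and the genotypes did not separate for any of the 14, against 2.27%. With each gene represented by its brightest probe set, 0 of 10 genes were called, against a background of 0.328% of 12821 genes. Of the 10 genes 7 had a positive and 3 a negative log2 change, with a median of 0.16, while the median over all genes was 0.00 and 50.1% of genes were positive. Averaging all probe sets of a gene gave a median of 0.10. Unadjusted p-values under 0.05 were found for Stab2, Cdh5 and Eng, 3 of 10 genes, where 11.4% of all genes had one. The genotypes overlapped for every one of the 10 genes, and 2.76% of all genes showed no overlap. Each array measures a whole liver, so the number of endothelial cells and the RNA per endothelial cell cannot be told apart.

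**Figure D1:**
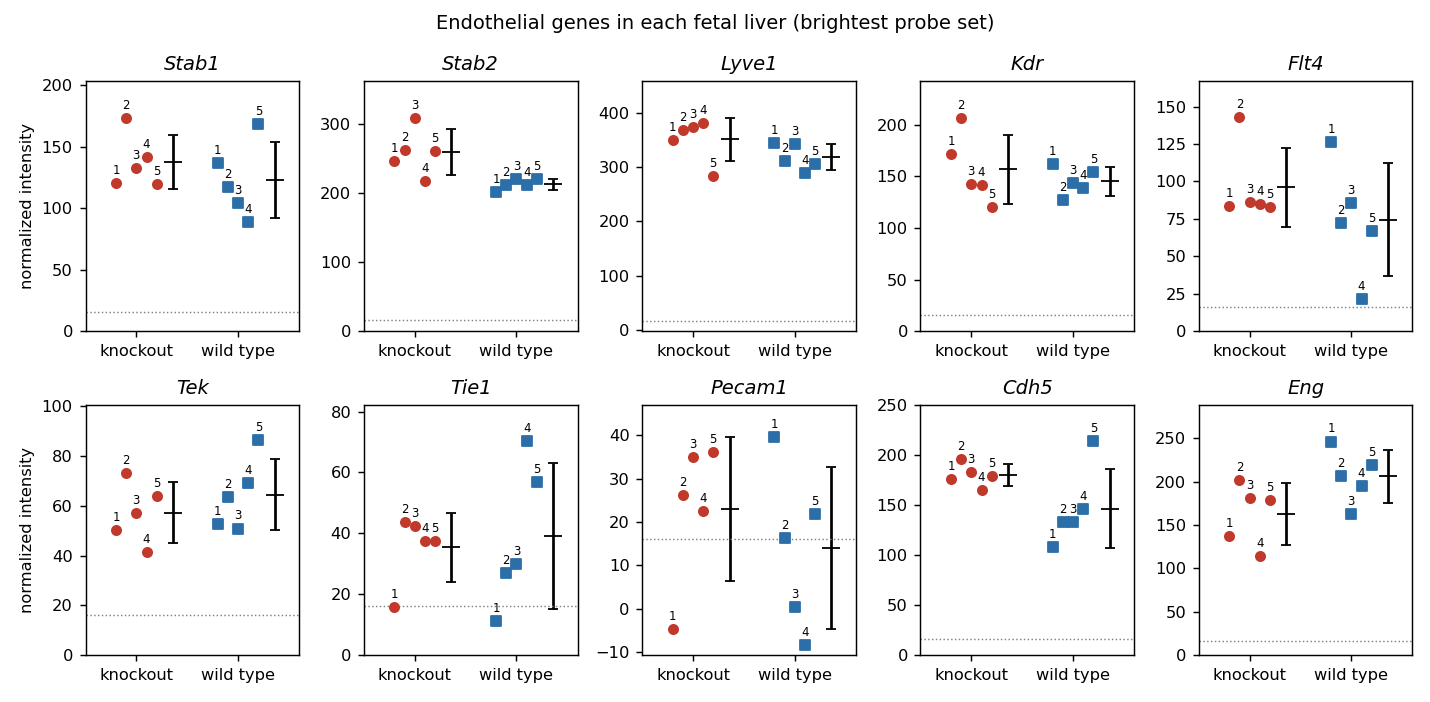
Normalized intensity (vertical axis, linear) of the 10 endothelial genes by their brightest probe set in each of 5 knockout (red circles) and 5 wild type livers (blue squares), with replicate numbers above the points. Black bars give the mean and SD and the dotted line the floor of 16. Stab2 in knockout livers lies above all wild type livers except in knockout replicate 4, and the points of Pecam1 scatter around the floor.

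Stab2, a scavenger receptor that clears hyaluronan in liver sinusoids, had the smallest unadjusted p of the 10 genes. Its intensity was 247, 262, 309, 218 and 261.5 in knockout replicates 1 to 5, against 202, 211, 220, 211 and 221 in wild type replicates 1 to 5. Thus 4 of 5 knockout livers lay above every wild type liver, and knockout replicate 4 fell within the wild type range. The means were 259.6 ± 32.95 in knockout and 213 ± 7.81 in wild type livers (SD, n = 5 each). The log2 change of 0.28 ± 0.10 (SE; 95% interval 0.065 to 0.49), a 1.21-fold difference, did not pass over all probe sets (limma adjusted p = 0.3367). A two-sided exact permutation test of this gene alone gave p = 0.0238, where 5 against 5 livers allow no value under 0.00794. The wild type livers lay within a narrow band, and the knockout livers were spread more widely around a higher mean.

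Lyve1 encodes a hyaluronan-binding receptor of lymphatic and sinusoidal endothelium. Its brighter probe set measured 351, 368, 374, 381 and 284 in knockout livers, against 344, 311, 343, 289 and 305.5 in wild type livers. Knockout replicates 1 to 4 lay above every wild type liver, and knockout replicate 5 was the lowest of all 10. The log2 change was 0.14 ± 0.09 (SE; limma adjusted p = 0.6825), and 0.21 without knockout replicate 5. A dimmer Lyve1 probe set measured 180, 184.5, 168.5, 173 and 149.5 in knockout livers and 167, 178, 142.5, 142 and 172 in wild type livers. There knockout replicate 5 was again the lowest of its genotype, and the log2 change was 0.10 ± 0.11.

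Stab1, the paralog of Stab2, is found on sinusoidal endothelium and on macrophages. It measured 121, 174, 133, 142 and 120 in knockout livers, against 136.5, 117, 104.5, 88.6 and 169 in wild type livers. Knockout replicate 2 was the highest liver of all and wild type replicate 5 came next, so the genotypes were interleaved. The log2 change was 0.18 ± 0.18 (SE; limma adjusted p = 0.802), with a 95% interval of -0.19 to 0.56. It was 0.074 without wild type replicate 4, 0.096 without knockout replicate 2 and 0.31 without wild type replicate 5.

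Kdr encodes the main signalling receptor for VEGF-A on endothelial cells. Its intensity was 172, 207, 143, 142 and 120 in knockout livers and 162, 127, 144, 139 and 154 in wild type livers. Knockout livers held both the highest value, in replicate 2, and the lowest, in replicate 5. The log2 change of 0.09 ± 0.15 (SE; 95% interval -0.22 to 0.40; limma adjusted p = 0.9019) turned to -0.016 without knockout replicate 2.

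Flt4 encodes the VEGF-C receptor, which marks lymphatic and sinusoidal endothelium. Its brighter probe set measured 83.3, 143, 86.1, 85.1 and 82.9 in knockout livers, against 126, 72.5, 85.6, 21.7 and 66.7 in wild type livers. Knockout livers other than replicate 2 were nearly equal, while wild type replicate 4 was the lowest of all and wild type replicate 1 the second highest. The log2 change of 0.53 ± 0.36 (SE; 95% interval -0.23 to 1.297; limma adjusted p = 0.6766) was 0.14 without wild type replicate 4, and the mean of both Flt4 probe sets gave 0.068. The other Flt4 probe set had the opposite sign (-0.40 ± 0.25; adjusted p = 0.6534). It ran from -4.28 to 19.97 in knockout and from -7.68 to 30.2 in wild type livers. There 4 knockout and 2 wild type livers lay under 16, so it carries little information on the size of a difference.

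Tek encodes the angiopoietin receptor Tie2. It measured 50.2, 73.4, 57.1, 41.6 and 63.9 in knockout livers, against 52.6, 63.4, 50.9, 69.2 and 86.4 in wild type livers. Knockout replicates 1 and 4 lay below every wild type liver, and wild type replicate 5 was the highest of all. The log2 change was -0.17 ± 0.23 (SE; 95% interval -0.66 to 0.32; limma adjusted p = 0.8742), and -0.059 without wild type replicate 5.

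Tie1, the co-receptor of Tek that has no angiopoietin ligand of its own, was dim. It measured 15.8, 43.8, 42.3, 37.35 and 37.4 in knockout livers, against 11.2, 27.0, 29.7, 70.5 and 56.85 in wild type livers. Replicate 1 of each genotype lay under 16, and the wild type livers covered the wider range. The log2 change of -0.063 ± 0.40 had a 95% interval of -0.92 to 0.79 (limma adjusted p = 0.9784), which leaves a difference of either sign within reach. It was 0.20 without knockout replicate 1, 0.19 without wild type replicate 4 and 0.11 without wild type replicate 5.

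Cdh5 encodes VE-cadherin, the adhesion molecule of endothelial adherens junctions. Its brighter probe set measured 176, 197, 183, 166 and 179 in knockout livers, against 108, 133, 133, 146 and 214 in wild type livers. Wild type replicates 1 to 4 lay below every knockout liver, and wild type replicate 5 lay above all of them. The means were 180 ± 11.3 in knockout and 147 ± 40 in wild type livers (SD, n = 5 each). The log2 change was 0.33 ± 0.15 (SE; 95% interval 0.005 to 0.66; limma adjusted p = 0.5019), and a two-sided exact permutation test of Cdh5 alone gave p = 0.0714. Without wild type replicate 5 the log2 change was 0.48, still not called. The second Cdh5 probe set lay near 16 in both genotypes, at means of 11.7 and 20.35 in knockout and wild type livers, with a log2 change of -0.096 ± 0.24. The mean of both probe sets gave 0.12.

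Pecam1, an adhesion molecule at endothelial junctions that platelets and leukocytes carry too, had 1 dim probe set. It measured -4.75, 26.3, 35.04, 22.5 and 36.1 in knockout livers, against 39.6, 16.2, 0.3457, -8.30 and 21.8 in wild type livers. With 1 knockout and 2 wild type livers under 16, its log2 change of 0.35 ± 0.32 (limma adjusted p = 0.7927) rests partly on values set to the floor. With a floor of 32 it was -0.000134, and with the lowest positive value as the floor 1.46.

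Eng encodes endoglin, a co-receptor for BMP9 and BMP10 that blood progenitors also carry. Its brighter probe set measured 137.5, 202, 181, 114 and 179 in knockout livers, against 246, 207, 163, 195 and 220 in wild type livers. Knockout replicates 1 and 4 lay below every wild type liver, and wild type replicates 1, 2 and 5 lay above every knockout liver. The means were 163 ± 35.75 in knockout and 206 ± 30.9 in wild type livers (SD, n = 5 each). The log2 change of -0.36 ± 0.16 (SE; 95% interval -0.69 to -0.023), a 1.28-fold lower level in knockout livers, was not called (limma adjusted p = 0.4756). A two-sided exact permutation test of Eng alone gave p = 0.0952. The dimmer Eng probe set had the opposite sign, at 0.26 ± 0.36, with 25.2 to 56.6 in knockout and 20.7 to 79.05 in wild type livers. The mean of both probe sets gave -0.049.

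**Figure D2:**
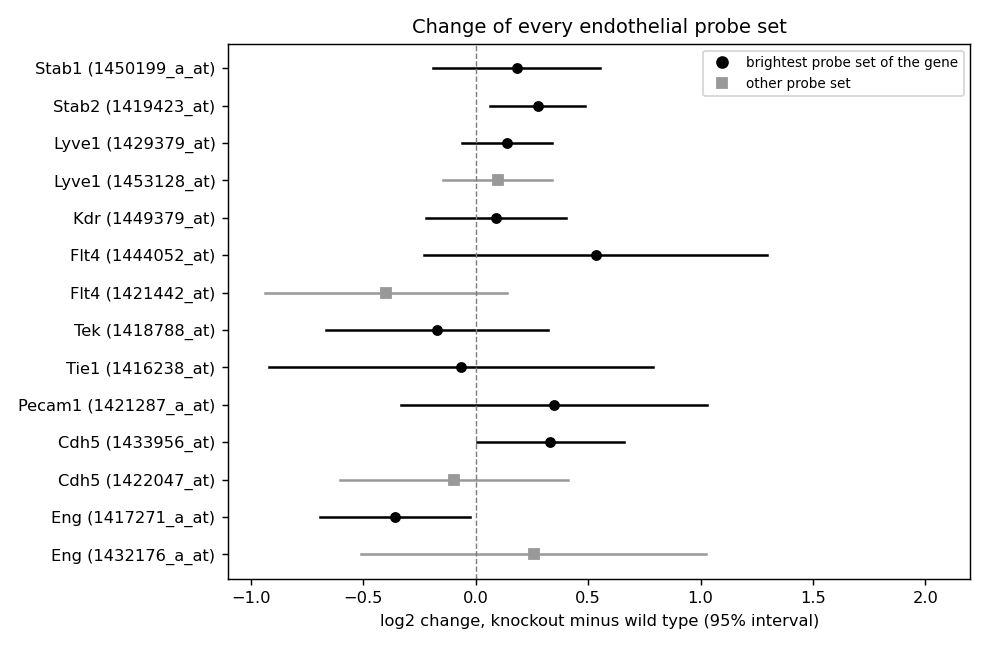
Log2 change, knockout minus wild type, of all 14 endothelial probe sets, with 95% intervals from limma. Black circles are each gene's brightest probe set and grey squares the others. The intervals of Stab2, Cdh5 and Eng, by their brightest probe sets, leave out 0, before any adjustment for the number of probe sets tested. The paired probe sets of Flt4, Cdh5 and Eng differ in sign.

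The livers of 1 genotype differed from each other in ways that several of the 10 genes shared. Knockout replicate 2 had the highest value among knockout livers for 7 of the 10 genes, and its median deviation from each gene's mean over all livers was 0.30 on the log2 scale. The other knockout livers had median deviations of -0.005 to 0.16. Among wild type livers the median deviations were 0.068 and 0.16 in replicates 1 and 5 and -0.17 to -0.14 in replicates 2, 3 and 4. Wild type replicate 1 was the highest wild type liver for 5 of the genes and replicate 5 for 4. Without knockout replicate 2, the median change of the 10 genes was 0.11 and 6 of them were positive.

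**Figure D3:**
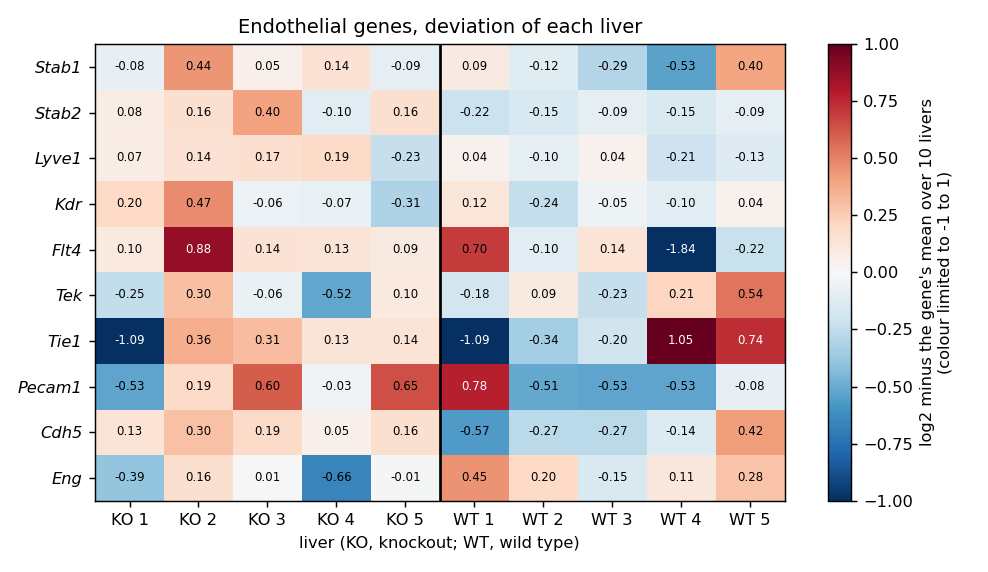
Log2 intensity minus the gene's mean over all 10 livers, for the 10 endothelial genes (rows) in each liver (columns, knockout left of the line and wild type right), with values printed and colours limited to -1 and 1. Knockout replicate 2 is above the mean for each gene. Tek, Tie1 and Cdh5 are low in wild type replicate 1 and high in wild type replicate 5.

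Within genotypes, the 10 genes varied together only in part. After each genotype's mean was removed, the median Pearson correlation over the 45 gene pairs was 0.24, with 29 pairs above 0, against 0.00 over all pairs of the 12821 tested genes. Without knockout replicate 2 the median was 0.13. The correlations rest on the same 10 arrays and are given as a description. The closest pair was Tek and Cdh5 (r = 0.773, Spearman 0.915), followed by Pecam1 and Eng (r = 0.678, 0.723) and Tek and Eng (r = 0.67, 0.588). Tie1 also varied with Cdh5 (r = 0.656, Spearman 0.842) and with Tek (0.594, 0.709). The lowest values were those of Flt4 with Tie1 (r = -0.584, Spearman -0.37) and of Lyve1 with Tek (r = -0.516, -0.745), while Lyve1 with Tie1 had r = -0.34 (-0.479). Stab1 and Stab2 were near 0 (r = -0.007, Spearman -0.018).

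The genes most like the mean profile of the 10 were sought among 12811 others by Pearson's r over the 10 livers with genotype means removed. The 10 highest were Naip5 (0.971), Ralb (0.959), Adgre1 (0.957), Mapk10 (0.938), Gm7444 (0.932), Cd93 (0.928), Gdf9 (0.926), Cotl1 (0.921), Mx1 (0.914) and Parva (0.913). Being the highest of so many, these values are a ranking and carry no test. Cd93, a surface lectin of endothelium, averaged 92.0 in knockout and 110 in wild type livers. Adgre1, which encodes the macrophage antigen F4/80, averaged 359 in knockout and 292 in wild type livers. Its r was 0.982 without knockout replicate 2. Mapk10 and Gm7444 averaged under 16 in both genotypes, and neither Naip5 nor Mx1 exceeded a mean of 19.21 in either. None of the 10 was called.

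The wider endothelial programme was examined through 8 lists that hold 141 genes, the 10 above included, of which 121 were tested. None of the 121 was called (limma; lowest adjusted p = 0.1126, 23 at an unadjusted p under 0.05). Of these 23, 18 were positive and 5 negative, and they made up 19% of the list genes against 11.4% of all genes. The lists are not limited to endothelium: Clec4f is also a macrophage marker below, and Vwf, among the 23, a platelet marker. The part of other cells in this share was not tested. The median change was 0.12, and 0.11 for the 111 genes other than the 10. The genotypes did not overlap for 3 genes, or 2.48%, close to the 2.76% of all genes. These were Icam1, Tjp1 and Gpr182, named after their values were seen, and all 3 were higher in knockout livers, as were 1.33% of all genes. Icam1, a leukocyte adhesion receptor, ran from 104 to 118 in knockout and from 38.3 to 95.9 in wild type livers (log2 0.87 ± 0.24, adjusted p = 0.1662). Gpr182, a receptor of sinusoidal endothelium, ran from 130 to 149 in knockout and from 102 to 124 in wild type livers (0.38 ± 0.12, adjusted p = 0.2605). Tjp1, a scaffold of tight junctions in many cell types, ran from 367.5 to 468 in knockout and from 291 to 363 in wild type livers (0.32 ± 0.09, adjusted p = 0.1545). The count of 3 used each gene's brightest probe set. Another probe set of Ehd3, from the sinusoid list, was lower in knockout livers without overlap (-0.61 ± 0.18, limma adjusted p = 0.2107). Its brightest gave -0.46 ± 0.13 (limma adjusted p = 0.1978). Such other probe sets of Id2 (0.57 ± 0.12, limma adjusted p = 0.07258) and Msr1 were higher.

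Around Stab1, Stab2 and Lyve1, the sinusoid scavenger and lectin list had 18 tested genes, 13 positive and 5 negative, with a median of 0.21 and 0 called. Its largest change was that of Msr1, the macrophage scavenger receptor gene. Msr1 averaged 73.4 in knockout and 45.3 in wild type livers (log2 0.80 ± 0.37, limma adjusted p = 0.4925). The part of macrophages in this value was not tested. The other tested Msr1 probe sets gave 1.34 ± 0.28, with no overlap of the genotypes (adjusted p = 0.06746), and 0.38, and none was called. Its lowest was the Kupffer cell lectin Clec4f, at 26.1 in knockout and 45.1 in wild type livers (-0.61 ± 0.32, adjusted p = 0.5672), with 1 knockout liver under 16. The summed intensity of the list was 5057 to 5781 in knockout and 4271 to 5274 in wild type livers. Its largest single part was Ctsl, which averaged 2239 in knockout and 1872 in wild type livers.

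Around Kdr and Flt4, the VEGF list had 9 tested genes, 7 positive and 2 negative, with a median of 0.22 and 0 called. The ligand Vegfa averaged 96.8 ± 38.1 in knockout and 53.5 ± 24.6 in wild type livers by its brightest probe set (SD, n = 5 each; log2 0.92 ± 0.33, limma adjusted p = 0.3265). Another Vegfa probe set had a log2 change of -0.17. Vegfb was lowest, at -0.49 ± 0.39 (adjusted p = 0.7455), with means of 54.6 in knockout and 63.9 in wild type livers. The summed list reached 1131 in knockout replicate 2, against 560.5 to 707 in the other knockout livers and 536.5 to 760 in wild type livers.

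Around Tek and Tie1, the angiopoietin list had 6 tested genes, 1 positive and 5 negative, with a median of -0.11 and 0 called. Angpt1, the activating ligand of Tek, averaged 22.05 ± 10.8 in knockout and 41.3 ± 12.55 in wild type livers (SD, n = 5 each; log2 -0.82 ± 0.32, limma adjusted p = 0.3887), with 2 knockout livers under 16. Ptprb, the phosphatase that dampens Tek, had the one positive change, at means of 76.0 in knockout and 64.4 in wild type livers (0.25 ± 0.19, adjusted p = 0.7323). Its other tested probe set gave -0.11.

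Around Eng, the BMP9 and TGF-beta list had 13 tested genes, 12 positive and 1 negative, with a median of 0.15 and 0 called. Eng was the negative one. Its ligand gene Gdf2, which encodes BMP9, averaged 203 in knockout and 170 in wild type livers (log2 0.26 ± 0.14, limma adjusted p = 0.5942). Id1, a direct target of BMP signalling, averaged 216 ± 50.4 in knockout and 172 ± 22.03 in wild type livers (SD, n = 5 each; 0.31 ± 0.14, adjusted p = 0.498).

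Around Cdh5 and Pecam1, the junction and surface list had 31 tested genes, 18 positive and 13 negative, with a median of 0.043 and 0 called. Vwf, which endothelium and platelets both make, was lowest, at 71.1 ± 17.1 in knockout and 142 ± 45.2 in wild type livers (SD, n = 5 each; log2 -0.97 ± 0.24, limma adjusted p = 0.1126). The remaining lists also held 0 called genes. The angiocrine list had a median of 0.11 over 10 genes, between Bmp6 (0.32 ± 0.38) and Cxcl12 (-0.14 ± 0.08). The Notch list had a median of -0.018 over 11 genes, between Dll4 (0.93 ± 0.30, with 3 wild type livers under 16 and another probe set at -0.02) and Jag1 (-0.59 ± 0.31). Transcription factors had a median of 0.14 over 23 genes, between Sox7 (0.68 ± 0.29) and the ETS factor Erg (-0.48 ± 0.32).

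**Figure D4:**
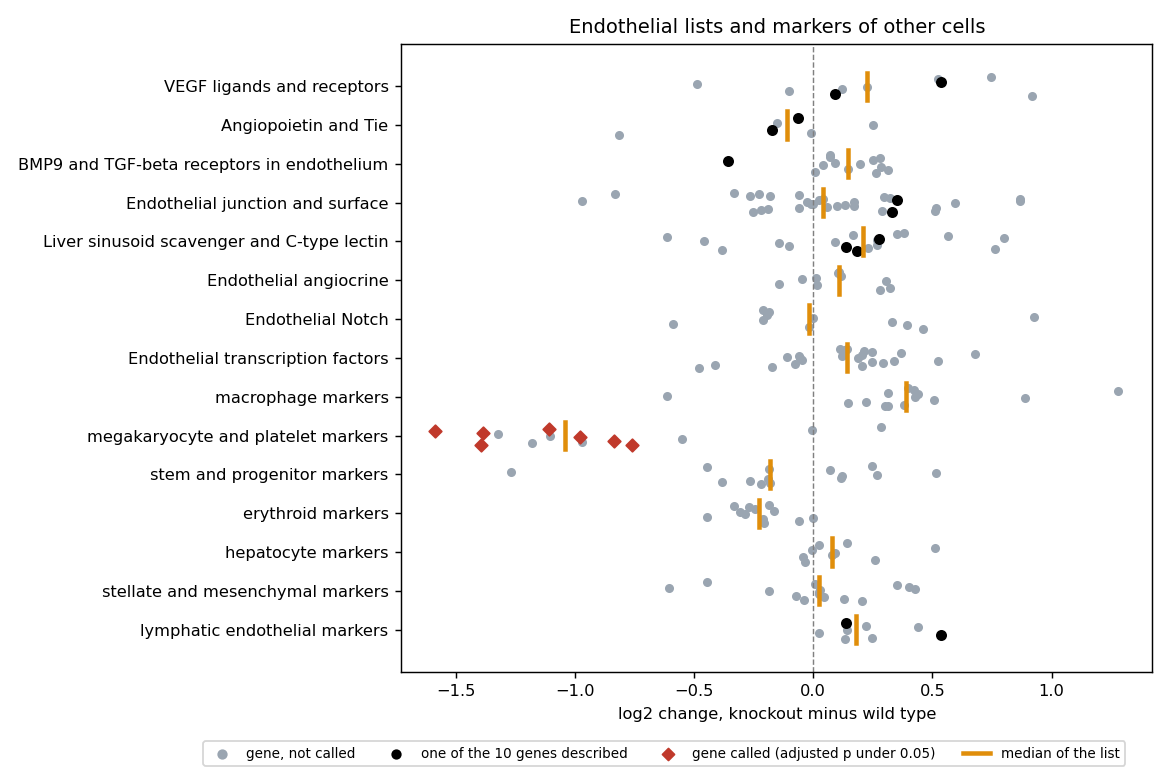
Log2 change, knockout minus wild type, of every tested gene in 8 endothelial lists and 7 lists of cell type markers, each gene by its brightest probe set. Black points are the 10 endothelial genes described, red diamonds the genes called at an adjusted p under 0.05, and orange lines the list medians. The 7 called genes all lie in the megakaryocyte and platelet list, at log2 changes of -1.585 to -0.762.

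Other cells of the fetal liver carry some of the 10 genes, and their markers were measured on the same arrays. Of 14 tested macrophage markers 13 were positive, with a median of 0.39 and 0 called. Lyz2 was highest (1.28 ± 0.30, limma adjusted p = 0.09546) and Clec4f lowest. Their summed intensity was 6453 to 7628 in knockout livers and 3124 to 6712 in wild type livers, with wild type replicate 5 as the highest wild type liver. The largest single part of this sum was Lyz2, which averaged 2162 in knockout and 1020 in wild type livers. Macrophages share Stab1 and Lyve1 with endothelium, and the part of macrophages in the values of these genes was not tested.

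Of 14 tested megakaryocyte and platelet markers 13 were negative, with a median of -1.04. Among them 7 fell, against 0.172% of all genes: Pf4, Ppbp, Plek, Gp5, Itga2b, Itgb3 and Clec1b. The genotypes did not overlap for 8 of the 14, all lower in knockout livers, against 1.43% of all genes. Gp5, a platelet adhesion glycoprotein, had the largest fall, at means of 39.0 ± 13.3 in knockout and 115 ± 31.8 in wild type livers (SD, n = 5 each; log2 -1.585 ± 0.26, limma adjusted p = 0.02402). Tubb1 was highest (0.28 ± 0.37). The summed intensity was 3043 to 4330 in knockout and 4728 to 8210 in wild type livers. Vwf is a member of this list too, Pecam1 is also carried by platelets, and the part of this lineage in their values was not tested.

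Of 14 stem and progenitor markers 6 were positive and 8 negative, with a median of -0.18 and 0 called, from Slamf1 (-1.27 ± 0.28, limma adjusted p = 0.07691) to Cd48 (0.515 ± 0.21). Their median deviation from each gene's mean overlapped, at -0.21 to 0.055 in knockout and -0.15 to 0.255 in wild type livers. Their sum, 3338 to 3737 in knockout and 3930 to 4214 in wild type livers, did not overlap, and most of it came from Lmo2, a transcription factor partner in blood progenitors, which averaged 2448 in knockout and 2783 in wild type livers. Progenitors share Eng and Tek with endothelium, and their part was not tested. Among erythroid markers 11 of 12 were negative (median -0.23, 0 called), from Epor (-0.44 ± 0.12) to Slc4a1 (0.001 ± 0.09). Of the 12, 9 had an unadjusted limma p under 0.05, all lower in knockout livers, where 11.4% of all genes had one in either direction. The genotypes did not overlap for 3, all lower in knockout livers, against 1.43% of all genes.

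Hepatocyte markers had a median of 0.081 over 9 genes, from Ttr (-0.043 ± 0.06) to Fgb (0.51 ± 0.15), with 0 called. Stellate and mesenchymal markers had a median of 0.025 over 15 genes, from Tagln (-0.61 ± 0.32) to Col1a1 (0.43 ± 0.22), with 0 called. Their sum was highest in knockout replicate 2, at 7794, against 5572 to 6776 in the other knockout livers and 5487 to 6465 in wild type livers. By summed intensity knockout replicate 2 was not high in every endothelial list. Its junction and surface sum was 3252, against 3236 to 3528 in the other knockout livers and 3261 to 3736 in wild type livers. By median deviation from each gene's mean, knockout replicate 2 was highest in that list, at 0.172, against at most 0.115 in wild type livers. It had the lowest sum of megakaryocyte and platelet markers of all 10 livers. By their brightest probe sets all 8 tested lymphatic endothelial markers were positive (median 0.18, 0 called), from Reln (0.024 ± 0.13) to Flt4. Other tested probe sets were negative for Flt4 (-0.40), Prox1 (-0.1), Reln (-0.1) and Nr2f2 (-0.01). Further ones were positive for Prox1 (0.47), Nr2f2 (0.16 and 0.38), Itga9 (0.40) and Lyve1 (0.10). Flt4 and Lyve1 are among the 10 genes, and Reln is in the stellate and mesenchymal list too.

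**Figure D5:**
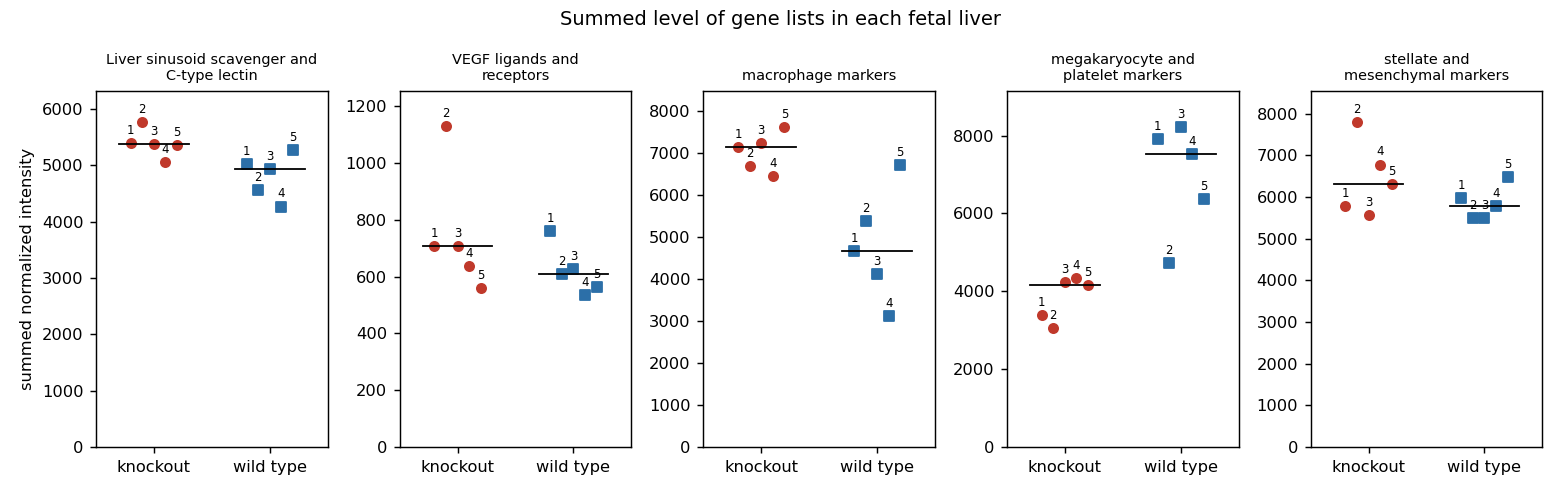
Summed normalized intensity (vertical axis, linear from 0) of 5 gene lists in each of 5 knockout (red circles) and 5 wild type livers (blue squares), with replicate numbers above the points and the median as a line. Knockout replicate 2 stands above the other livers in the VEGF and the mesenchymal sums. The macrophage sum is lower in 4 of 5 wild type livers than in any knockout liver, and the megakaryocyte and platelet sum is higher in each wild type liver than in any knockout liver.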

How the data were processed

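Total RNA of 10 single fetal livers was labelled by a one-cycle Affymetrix protocol, per the labels' protocols. The authors deposited 1 linear intensity per probe set and array, of which 21.5% lay at or below 0; the software and scaling behind it are not stated in the labels. Groups and replicate numbers came from the sample titles.

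The deposited intensities were quantile-normalized, raised to at least 16 and put on the log2 scale; the lowest positive value as floor would stretch dim values to large negative logs. Probe sets below the 40th percentile of mean log2 were not tested. The model in limma 3.58.1 (R 4.3.3) held genotype alone, with a mean-dependent prior variance and two-sided p-values adjusted by Benjamini-Hochberg across the 27022 probe sets. The fit was first checked on simulated data. SDs describe the normalized linear values, and SEs and 95% intervals come from limma. Arrays have no read depth, so the number of livers sets the precision.

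The platform annotation gave 34945 probe sets 1 symbol, and 10092 had none or several. Older symbols were updated through RefSeq gene identifiers, and 219 of 230 list symbols were matched. The members, lists and settings were chosen with earlier results of these data known. Genes named are the 10 members with all probe sets, Zfp36l2, list genes that were called, and each list's highest and lowest change. The 10 genes most like the members' mean profile are named as well. Alb and Afp were added for the tissue check and Gdf2 as the ligand of endoglin. Lmo2, Tjp1, Gpr182, Ehd3, Id2, Ctsl, Prox1, Nr2f2 and Itga9 were added after their values were seen. Deviations of same-numbered livers from their group means correlated at 0.028 to 0.13. Most knockout livers still correlated best with the wild type liver of the same number. The numbers served as names in the main fit, and a fit with them as a block is given below. Alternatives changed the floor, scaling, filter, prior, weights, block and livers, 1 at a time. Plots came from matplotlib 3.10.9.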

Additional observations from a re-analysis of the deposited data

Results flagged for a closer look

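By Dixon's ratio, 3 of the 28 groups of 5 livers tested held 1 value far from the rest, where chance gives about 1 in 20 groups, or 1.4, and in another group the ratio was void. Lyve1 was low in knockout replicate 5, at 284.1 units against 350.7 in the nearest knockout liver, by its brighter probe set. Flt4 was high in knockout replicate 2, at 143.1 against 86.1. Tie1 stood at the floor of 16 in knockout replicate 1, with 37.35 as the nearest knockout value. The void ratio was that of the dimmer Flt4 probe set, which read 19.97 in knockout replicate 5 while the other 4 knockout livers were set to the floor of 16, so that any value above 16 would stand apart; the measured values there were -4.28 to 14.99.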

How the results depend on the processing

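No endothelial probe set was called under any of 20 alternative fits. The median change of the 10 genes stayed positive under all 21 alternatives, between 0.108 and 0.221 with 1 liver left out and between 0.104 and 0.227 otherwise. The highest, 0.227, came with median scaling, where the median over all genes was 0.062. Stab1, Stab2, Lyve1, Flt4, Cdh5, Tek and Eng kept their sign throughout, each followed by the same probe set, its brightest. The other probe sets of Flt4, Cdh5 and Eng, of opposite sign, entered these values only where the probe sets of a gene were averaged. The adjusted p of Stab2 ran from 0.1972 to 0.566, that of Cdh5 from 0.1139 to 0.7954 and that of Eng from 0.3932 to 0.7954. Kdr changed sign without knockout replicate 2, where its log2 change was -0.016, and leaving out 1 liver each gave -0.016 to 0.179. Tie1 ranged from -0.344 to 0.2 with 1 liver left out and was 0.036 with the lowest positive value as floor. Pecam1 was -0.000134 with a floor of 32 and 1.456 with the lowest positive value as floor, and it was not tested at the 60th percentile. The count of called probe sets over the array, 57, moved to 11 with the lowest positive value as floor, 12 with a floor of 32, 94 with median scaling, 4 without a filter, 9 without the trend and 103 with array weights, and ran from 13 to 168 with 1 liver left out. The causes of these shifts were not tested. With the replicate number as a block 179 probe sets were called, none of them endothelial; 4 of 5 knockout livers correlated best with the wild type liver of the same number, which is a hint from the data and not the design. Values near 16 units, as in Tie1, Pecam1 and the dimmer Flt4 and Cdh5 probe sets, limit what can be seen there.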
